A study of Homo sapiens with 45 samples.

Results

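Oxidative phosphorylation is the stage of respiration in which mitochondria pass electrons from NADH and succinate to oxygen and use the proton gradient so formed to make ATP. Complexes I to IV are the respiratory chain (NADH dehydrogenase, succinate dehydrogenase, the cytochrome bc1 complex and cytochrome c oxidase), and complex V is the ATP synthase. Most of their subunits are encoded in the nucleus, made in the cytosol and imported, and they are assembled with a small set of subunits encoded in mitochondrial DNA. HNRNPK encodes hnRNP K, a nuclear protein that binds C-rich RNA and single-stranded DNA and acts in transcription, splicing and translation. The nuclear genes of these complexes were chosen by symbol in the gene table of 8 RNA libraries: the NDUFA, NDUFB, NDUFC, NDUFS and NDUFV genes, SDHA to SDHD, and the genes starting with UQCR, COX4 to COX8 or ATP5. Of 28278 gene names, 88 matched, 1 was a pseudogene by its RefSeq biotype and was left out, and 87 protein-coding genes remained. NDUFA4 was placed in complex IV, where current nomenclature puts it, which gave 36 members in complex I, 4 in complex II, 9 in complex III, 18 in complex IV and 20 in complex V. CYC1, NDUFAB1 and CYCS fall outside the symbols and are given apart, and the subunits encoded in mitochondrial DNA are not analysed here.

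The study profiled HCT116 cells, an established human colon cancer line, after RNA interference against HNRNPK, in a project on chromatin at the nuclear lamina. Cells were collected 72 h after transfection with 25 nM siRNA. The RNA libraries comprised 4 with the nontargeting siRNA siNTC5, 4 with HNRNPK siRNA and 2 with a second nontargeting control, Scramble, and 35 further samples were ChIP or input libraries. Replicates 1 and 2 of siNTC5 and of HNRNPK siRNA were made with a TruSeq stranded mRNA kit and replicates 3 and 4 with a ligation-based stranded mRNA kit. The Scramble libraries (replicates 5 and 6) were made with TruSeq from RNA purified on other columns and came in separate tables. The labels do not say whether replicates were separate cultures, so the p-values measure the spread between these libraries. The whole population of cells was lysed, so fewer cells with a transcript and less of it per cell cannot be told apart.

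Gene totals ranged from 14810376 to 23633851 counts in siNTC5, from 12107280 to 15255556 after HNRNPK siRNA and from 55007171 to 59209169 in Scramble. HNRNPK stood at 884 ± 78.0 CPM in siNTC5 (counts scaled to the library's size with TMM, a correction for library composition) and at 199 ± 45.3 CPM after its siRNA (SD, n = 4 each), or 22.4% of control. Its log2 fold change was −2.17 ± 0.06 (SE, edgeR adjusted p = 7.29e-15), and the exact permutation test on its CPM gave p = 0.0286, two-sided, the smallest that 4 against 4 allows. Colon epithelial markers KRT8, KRT18, KRT19, EPCAM and CDH1 were all above 94 CPM in every library, CDX2 stood between 9.06 and 14.2 CPM, and VIL1 was under 0.45 CPM. Of 10 markers of other cell types, 8 could not be tested for lack of counts, with CD3E and INS at 0 in all 8 libraries. The summed CPM of those markers ranged from 47.2 to 77.8 in siNTC5 and from 77.5 to 124 after HNRNPK siRNA. COL1A1, the most abundant, rose by 0.69 ± 0.06 on the log2 scale, ACTA2 fell from 4.08 to 1.45 CPM (−1.39 ± 0.28), and their part in the results was not tested.

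The members leaned downward after HNRNPK siRNA. Counts allowed a test of 76 of the 87, and 34 of these fell and 9 rose at an adjusted p under 0.05, while 33 did not pass. The 34 that fell are 44.7% of those tested, beside 36.1% of all 13933 genes tested. The 9 that rose are 11.8%, beside 35.5% of all genes. In either direction, 56.6% of the tested members passed, fewer than the 71.5% of all genes. The median log2 fold change was −0.11 among the members and −0.00 among all genes. With replicate 4 of HNRNPK siRNA left out, 34 members fell and only 5 rose. Library totals without TMM gave 40 falls and 5 rises, and upper-quartile scaling 32 and 13.

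Large changes were all downward. Falls of at least 0.5 on the log2 scale were made by 16 members, 21.1% of those tested, against a background of 21.4%, so large falls were as common among the members as elsewhere. No member rose by that much, whereas 18.5% of all genes did. The CPM of all 4 knockdown libraries lay below that of all 4 controls for 23 members (30.3%, background 28.0%) and above it for 5 (6.58%, background 28.5%). The members together took 0.8285% to 0.886% of unscaled counts in siNTC5 and 0.763% to 0.804% after HNRNPK siRNA, ranges that do not overlap. The Scramble libraries, counted in separate tables, stood above both, at 0.919% and 0.924%. Their shares include 6 members that were hardly counted in the 8 libraries (described below), UQCRC2 and NDUFS1 among them. The Scramble shares are therefore not on the same footing as the others. Summed by complex after TMM scaling, siNTC5 and HNRNPK siRNA libraries overlapped for complexes III, IV and V and stayed apart for complexes I and II. For complex V the overlap was between kits. There siNTC5 replicate 4 (ligation) stood at 3432.6 CPM, and HNRNPK siRNA replicates 1 and 2 (TruSeq) at 3460.5 and 3443.3 CPM. Within each kit the complex V groups were apart.

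**Figure D1:**
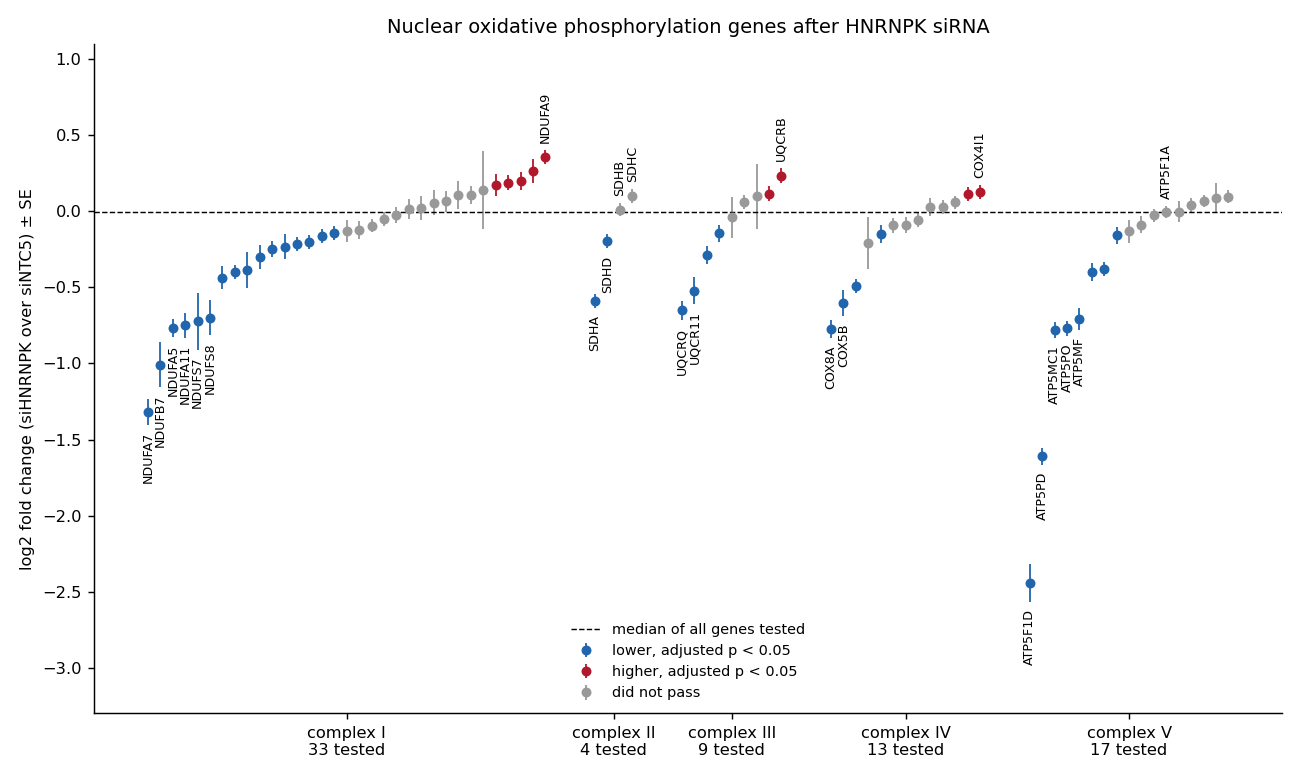
Log2 fold change of each of the 76 tested members (siHNRNPK over siNTC5, with standard error), ordered within complexes I to V, with the median of all genes as a dashed line. Complex V reaches lowest, with ATP5F1D at −2.44 and ATP5PD at −1.61, and no member stands higher than NDUFA9 at 0.36.

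**Figure D2:**
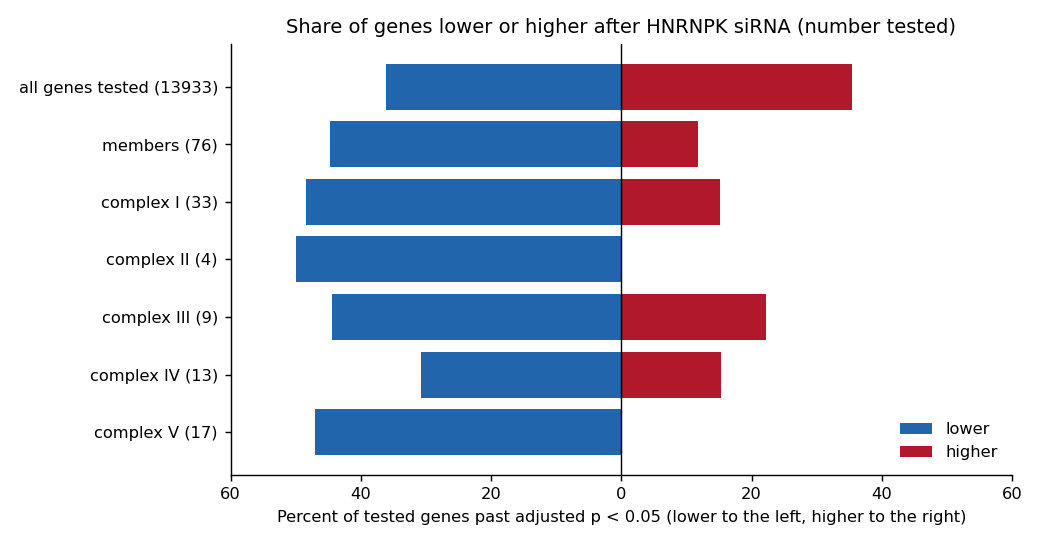
Percent of tested genes that were lower (left) or higher (right) at an adjusted p under 0.05, for all genes tested, the tested members and each complex, with the number tested in parentheses. The bars to the right are shorter for the members (11.8%) than for all genes (35.5%).

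Complex V, the ATP synthase, held the 2 deepest falls of any member. Of its 17 tested members, 8 fell (47.1%), none rose and 9 did not pass, with a median of −0.13. Of all genes tested, 36.1% fell and 35.5% rose. ATP5F1D, the delta subunit in the central stalk that turns inside the catalytic head, lies on chromosome 19 (1241751 to 1244825, GRCh38.p14). It stood at 41.3, 27.02, 56.8 and 48.0 CPM in siNTC5 replicates 1 to 4 and at 5.93, 6.98, 10.0 and 8.65 CPM after HNRNPK siRNA. Every knockdown library was far below every control, at 18.3% of the control mean. The log2 fold change was −2.44 ± 0.13 (adjusted p = 6.35e-12), rank 57 among the falls of all 13933 genes, and was −2.39 within the TruSeq libraries and −2.49 within the ligation libraries.

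ATP5PD, subunit d of the peripheral stalk that holds the catalytic head still, was at 115, 116, 118 and 114 CPM in siNTC5 and at 40.3, 35.4, 36.6 and 39.0 CPM after HNRNPK siRNA. Both groups were tight, with SDs of 1.81 and 2.26 CPM, and the fall was −1.61 ± 0.05 on the log2 scale (adjusted p = 2.47e-14). The gene lies on chromosome 17 (75038863 to 75046969) and overlaps KCTD2, whose own counts rose by 0.60 ± 0.05 on the log2 scale (adjusted p = 2.62e-09). Whether the counting used strand is not given in the sources used here, so reads shared between overlapping genes cannot be assigned. ATP5PO, the stalk subunit that contacts the head (OSCP), went from 159 ± 5.35 to 93.4 ± 4.74 CPM (SD, n = 4 each; log2 fold change −0.77 ± 0.05, adjusted p = 8.87e-11). ATP5PF, another stalk subunit, fell slightly (−0.16 ± 0.06, adjusted p = 0.0156). ATP5PB, subunit b of the same stalk, had a value of 0.10 ± 0.04 and did not pass (adjusted p = 0.0506).

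ATP5MC1, ATP5MC2 and ATP5MC3 encode the same mature c subunit of the proton-driven ring, and all 3 fell. ATP5MC1 was at 136, 148, 102 and 93.8 CPM in siNTC5 and at 82.5, 82.4, 52.9 and 61.3 CPM after HNRNPK siRNA (−0.78 ± 0.05, adjusted p = 3.55e-10). The groups did not overlap, and in both of them the TruSeq replicates were higher than the ligation replicates. ATP5MC2 fell by 0.40 ± 0.06 (adjusted p = 4.91e-06) and ATP5MC3 by 0.38 ± 0.04 (adjusted p = 4.22e-07) on the log2 scale. ATP5MF, a membrane subunit of the synthase, fell by 0.71 ± 0.07 (adjusted p = 5.39e-08), and its gene overlaps the readthrough gene ATP5MF-PTCD1.

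Apart from ATP5F1D, the genes of the catalytic head and the central stalk did not pass. ATP5F1B, the catalytic beta subunit, ran from 1167 to 1256 CPM in siNTC5 and from 1273 to 1323 CPM after HNRNPK siRNA (0.07 ± 0.04, adjusted p = 0.124). Its groups did not overlap although the test was not passed, and it passed as higher in 2 of 18 alternative analyses. ATP5F1A, the alpha subunit, was at 814 ± 27.6 and 810 ± 15.5 CPM (SD, n = 4 each; −0.01 ± 0.04, adjusted p = 0.893). The gamma and epsilon subunits ATP5F1C (−0.03 ± 0.04) and ATP5F1E (0.09 ± 0.10) did not pass either. Within the central stalk the 3 genes therefore ran from −2.44 for ATP5F1D to 0.09 for ATP5F1E.

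**Figure D3:**
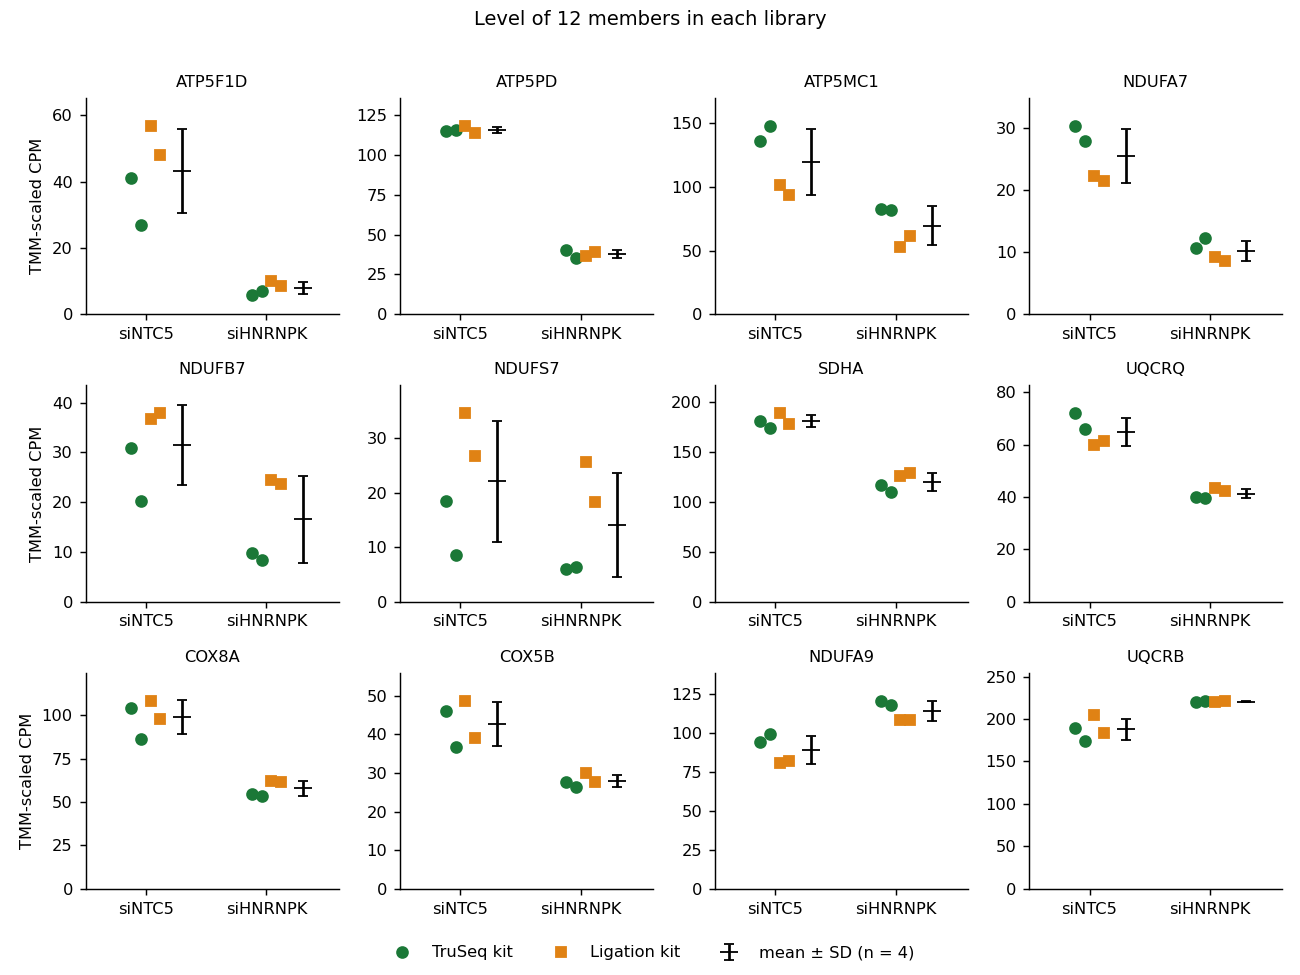
TMM-scaled CPM of 12 members in each of the 4 siNTC5 and 4 siHNRNPK libraries, by kit, with mean and SD. ATP5F1D, ATP5PD, NDUFA7, SDHA and COX8A separate the groups completely, while the groups overlap for NDUFB7 and NDUFS7, with the ligation libraries higher in both groups.

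Complex I, the entry point for electrons from NADH, had 16 falls and 5 rises among 33 tested members. A further 12 did not pass, and the median was −0.13. The falls are 48.5% and the rises 15.2%, beside 36.1% and 35.5% of all genes. Among the modules, the largest share of falls was in the one that passes electrons to ubiquinone (Q module). There 5 of 6 tested members fell (83.3%) and none rose, with a median of −0.71. NDUFA6, tested there without passing, had only 14 to 37 counts per library. The NADH-oxidising module (N module) had 4 falls and 2 rises of 7. The proximal part of the membrane pump had 3 falls and 3 rises of 9, and the distal part 4 falls and no rise of 11. All 5 tested genes of the catalytic core, the subunits conserved from bacteria, fell, with a median of −0.40.

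NDUFA7, an accessory subunit of the Q module, was at 30.3, 27.9, 22.3 and 21.5 CPM in siNTC5 and at 10.7, 12.3, 9.19 and 8.65 CPM after HNRNPK siRNA. No knockdown library came near a control, and the log2 fold change was −1.32 ± 0.09 (adjusted p = 1.34e-10). NDUFA5, another accessory subunit there, went from 63.4 ± 6.54 to 37.1 ± 2.98 CPM (SD, n = 4 each; −0.77 ± 0.06, adjusted p = 1.31e-09), also with no overlap. NDUFS7 and NDUFS8, core iron-sulfur subunits of the same module, fell by 0.72 ± 0.19 (adjusted p = 0.00201) and 0.70 ± 0.12 (adjusted p = 2.97e-05) on the log2 scale. NDUFS7 was at 18.4, 8.60, 34.6 and 26.8 CPM in siNTC5 and at 6.00, 6.31, 25.6 and 18.4 CPM after HNRNPK siRNA. The groups of NDUFS7 overlap, since both ligation knockdown libraries exceeded a TruSeq control, and its fall did not pass without the kit term in the model (adjusted p = 0.262).

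In the N module, NDUFV1, which carries the flavin that accepts electrons from NADH, went from 146 ± 9.81 to 111 ± 6.68 CPM (SD, n = 4 each; −0.40 ± 0.04, adjusted p = 1.86e-07). Its partner NDUFV2 fell by 0.16 ± 0.05 (adjusted p = 0.00498, a call lost in 3 of 19 alternatives), and the accessory subunits NDUFV3 and NDUFA2 fell by 0.44 ± 0.08 and 0.30 ± 0.08 on the log2 scale. NDUFS4, an accessory subunit of the same module, rose by 0.20 ± 0.06 (adjusted p = 0.00587, lost in 2 of 19 alternatives), and NDUFS6 rose by 0.17 ± 0.07 (adjusted p = 0.0377).

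In the membrane arm the deepest fall was that of NDUFB7, an accessory subunit of the distal pump, at −1.01 ± 0.15 (adjusted p = 5.87e-06). It was at 30.9, 20.3, 36.6 and 37.8 CPM in siNTC5 and at 9.69, 8.32, 24.4 and 23.7 CPM after HNRNPK siRNA. Within each kit the groups were apart, but the ligation knockdown libraries exceeded 1 TruSeq control. NDUFA11, in the proximal arm, fell by 0.75 ± 0.08 (adjusted p = 1.91e-07). NDUFA9, an accessory subunit at the junction of the arms, made the largest rise of any member. It was at 94.1, 99.2, 81.1 and 81.8 CPM in siNTC5 and at 121, 118, 108 and 108 CPM after HNRNPK siRNA (0.36 ± 0.05, adjusted p = 1.37e-06). NDUFC1 rose by 0.27 ± 0.08 (adjusted p = 0.00508, lost in 2 of 19 alternatives), and its gene overlaps NAA15, whose counts rose by 0.75 ± 0.06 on the log2 scale.

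Complex II, succinate dehydrogenase, links the citric acid cycle to the chain, and its 4 genes were all tested. SDHA, the flavoprotein that oxidises succinate, was at 181, 174, 188 and 178 CPM in siNTC5 and at 116, 109, 126 and 128 CPM after HNRNPK siRNA. The groups were far apart, and SDHA fell by 0.59 ± 0.05 on the log2 scale (adjusted p = 1.59e-09). SDHD, a membrane anchor, fell by 0.20 ± 0.05 (adjusted p = 8.76e-04) with overlapping groups, a call lost without the kit term (adjusted p = 0.0841) and with Scramble added to the controls (adjusted p = 0.148). SDHB, the iron-sulfur subunit that binds SDHA, was at 124 ± 2.62 and 125 ± 6.42 CPM (SD, n = 4 each; 0.01 ± 0.04, adjusted p = 0.847). SDHC, the other anchor, had a value of 0.10 ± 0.05 and did not pass (adjusted p = 0.0541). It passed as higher in 4 of 19 alternatives. SDHA has near-identical pseudogene copies, and how reads matching several places were counted is not given in the sources used here.

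In complex III, which passes electrons from ubiquinol to cytochrome c, 4 of 9 members fell (44.4%), 2 rose (22.2%) and 3 did not pass. The shares of all genes were 36.1% and 35.5%. The falls were led by small subunits. UQCRQ was at 72.0, 66.1, 59.8 and 61.6 CPM in siNTC5 and at 39.9, 39.6, 43.3 and 42.4 CPM after HNRNPK siRNA (−0.65 ± 0.07, adjusted p = 5.01e-08), with no overlap. UQCR11 fell by 0.52 ± 0.09 (adjusted p = 3.50e-05) and UQCR10 by 0.29 ± 0.06 (adjusted p = 2.90e-04) on the log2 scale. UQCRC1, a core protein, fell by 0.14 ± 0.06 (adjusted p = 0.0276), a call lost in 7 of 19 alternatives. UQCRB, another small subunit, rose by 0.235 ± 0.05 (adjusted p = 1.83e-04), from 188 ± 12.8 to 221 ± 0.801 CPM (SD, n = 4 each). With Scramble added to the controls its value was 0.04 and the call was lost (adjusted p = 0.845). UQCRFS1, the Rieske iron-sulfur protein, rose by 0.12 ± 0.05 (adjusted p = 0.0381), a call lost in 11 of 19 alternatives, among them the replicate block (adjusted p = 0.0551). UQCRH (0.06 ± 0.04) and its near-identical copy UQCRHL (−0.04 ± 0.14) did not pass, and reads may be split between them.

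In complex IV, where oxygen is reduced, 4 of 13 tested members fell (30.8%), 2 rose (15.4%) and 7 did not pass, with a median of −0.09. Both shares are under those of all genes, 36.1% and 35.5%. COX8A was at 104, 86.0, 108 and 97.6 CPM in siNTC5 and at 54.6, 53.5, 61.9 and 61.5 CPM after HNRNPK siRNA (−0.77 ± 0.06, adjusted p = 2.08e-09). The groups did not overlap, and the same held for COX5B, which fell by 0.60 ± 0.09 (adjusted p = 4.12e-06), and COX6B1, which fell by 0.49 ± 0.05 (adjusted p = 1.85e-08). COX6A1 fell by 0.15 ± 0.06 (adjusted p = 0.031), a call lost in 10 of 19 alternatives. COX4I1, a regulatory subunit, rose by 0.12 ± 0.05 (adjusted p = 0.021), and COX5A rose by 0.11 ± 0.05 (adjusted p = 0.0413). COX4I1 lost its call in 9 of 19 alternatives. COX5A kept its call in only 5 of 19 and lost it with the replicate block (adjusted p = 0.0554). The value of COX5A was −0.01 with the Scramble libraries added to the controls. COX7A2 (−0.06 ± 0.05), COX7A2L (−0.09 ± 0.05), COX7B (0.03 ± 0.06) and COX6B2 (−0.21 ± 0.17) did not pass. Their tissue-restricted relatives COX4I2, COX6A2, COX7A1, COX7B2 and COX8C could not be tested, with at most 15 counts in any of the 8 libraries and none at all for COX6A2, COX7B2 and COX8C.

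The levels of several members differed between the library kits. Kit coincides with replicate number and any culture round, so their parts cannot be told apart. Between kits 33 of 76 members differed at an adjusted p under 0.05, 12 higher and 21 lower with ligation, or 43.4% against a background of 28.5%. NDUFS7 was 1.46 ± 0.19, NDUFB7 0.89 ± 0.15, NDUFS8 0.68 ± 0.12 and ATP5F1D 0.60 ± 0.12 higher with ligation on the log2 scale, and ATP5MF was 0.69 ± 0.07 and ATP5MC1 0.54 ± 0.05 lower. No member passed the test of whether the knockdown effect differed between kits, where 0.129% of all genes did. In that test 6 of 76 members had an unadjusted p under 0.05, none passed by DESeq2, and the smallest adjusted p was 0.125, for NDUFB7. With siNTC5 replicate 2 left out, NDUFB7, NDUFS7, NDUFS8 and ATP5MC2 passed it. The fall of NDUFB7 was −1.49 ± 0.19 in the TruSeq and −0.64 ± 0.09 in the ligation libraries, that of NDUFS7 −1.10 ± 0.29 and −0.48 ± 0.11, and that of NDUFS8 −0.94 ± 0.17 and −0.49 ± 0.09.

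The Scramble libraries gave a second control. They share the siNTC5 libraries with the knockdown comparison, and they were counted in separate tables, so the comparisons are given side by side and the part of processing in them was not tested. By shared gene names, 62 members could be compared, none of complex V. Of these, 38 were higher and 10 lower in Scramble than in siNTC5, 77.4% in all, against a background of 68.6%. The 38 include 5 members that were hardly counted in the table of 8 libraries (NDUFS1, NDUFS3, NDUFA3, NDUFA6 and UQCRC2, described below), and without them 33 of 57 were higher and 10 lower, 75.4% in all. With library totals unscaled, which moved the median of all genes to −0.18, 28 were higher and 18 lower. With older and newer symbols joined through RefSeq synonyms, a step added after the data were seen, 47 of 81 were higher and 13 lower, 74.1% in all, against a background of 68.5%. Without those 5 and ATP5IF1, 41 of 75 were higher and 13 lower, 72.0% in all. ATP5F1D was 1.61 ± 0.14, NDUFS7 1.27 ± 0.24, COX5B 1.09 ± 0.11, NDUFS8 0.90 ± 0.14, NDUFB7 0.90 ± 0.14, COX8A 0.81 ± 0.08 and ATP5PD 0.36 ± 0.06 higher in Scramble on the log2 scale. SDHA, at 0.08 ± 0.06, and UQCRQ, at −0.04 ± 0.07, did not pass. NDUFA7 (−0.37 ± 0.11), NDUFA5 (−0.21 ± 0.07), ATP5MC1 (−0.52 ± 0.06) and ATP5MF (−1.05 ± 0.07) were lower in Scramble, the same sign as after HNRNPK siRNA. In absolute size, the difference between the 2 nontargeting controls was larger than that of the knockdown for NDUFS7, NDUFS8, NDUFA11, UQCR11, COX5B, COX8A and ATP5MF and smaller for the other 9 of the 16 members with large falls, ATP5F1D, ATP5PD, NDUFB7 and NDUFA7 among them, with no test of these differences. With Scramble added to the controls, 62 members could be tested, of which 21 fell and 1 rose. In that setting 7046 of all 14642 genes tested passed in either direction. The median log2 fold change there was −0.23 among the members and −0.05 among all genes.

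**Figure D4:**
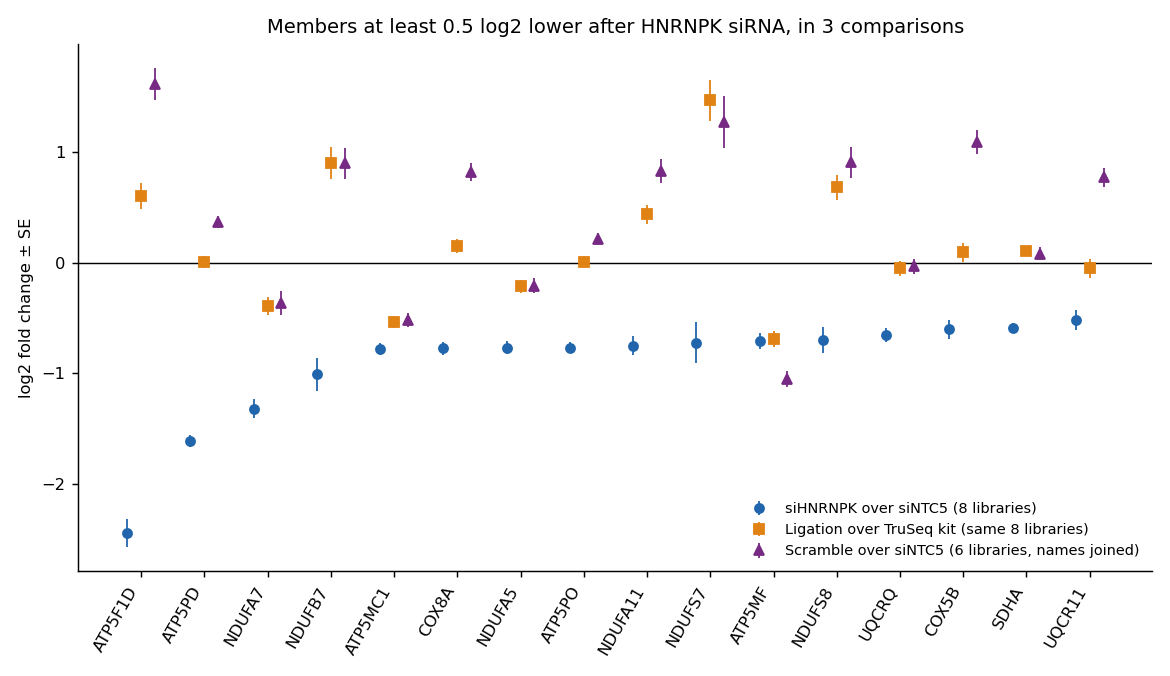
Log2 fold change with standard error of the 16 members that fell by at least 0.5, for the knockdown (circles), the kits (squares) and Scramble against siNTC5 (triangles). ATP5F1D, NDUFB7 and NDUFS7 have values above 0 for kit and Scramble. NDUFA7, NDUFA5, ATP5MC1 and ATP5MF have values under 0 in all 3 comparisons. SDHA and UQCRQ lie close to 0 for kit and Scramble.

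Some members had hardly any counts in the table of 8 libraries. NDUFS1 and NDUFS3, core subunits of complex I, had at most 2 counts in any of the 8, yet 7171 and 6357 counts (NDUFS1) and 3359 and 2967 counts (NDUFS3) in the Scramble tables. NDUFA3 had at most 3 counts against 1882 and 1653, and ATP5IF1, the inhibitor of the synthase, had 0 against 3603 and 3172 under its older name. UQCRC2, a core protein of complex III, had 23 to 53 counts against 14931 and 13746, and NDUFA6 14 to 37 against 3430 and 3326. Of 7358 shared names with at least 20 CPM (of all counts) in both Scramble libraries, 283, or 3.85%, were under 5 CPM in all 8 other libraries. Both the siNTC5 and the HNRNPK siRNA libraries were low in these genes. Their higher values in Scramble come from separate tables. Control siRNA, RNA purification, depth and table cannot be told apart there, and the cause was not tested. UQCRC2 and NDUFA6 were tested in the knockdown comparison on these few counts and are among the members that did not pass. NDUFS1, NDUFS3, NDUFA3 and ATP5IF1 could not be tested there, nor could ATP5MGL (at most 3 counts) and the readthrough ATP5MF-PTCD1 (at most 2 counts).

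By position, a grouping outside the planned analyses, 10 of the tested members lie on chromosome 19, more than on any other chromosome. Of these, 8 fell and 1 rose, with a median log2 fold change of −0.62. Elsewhere, 4 of 6 fell on chromosome 11 and 3 of 3 on chromosome 21, but only 1 of 7 on chromosome 1. Among all 944 tested genes on chromosome 19, 42.8% fell, beside 36.1% of all genes tested. The members that fell on this chromosome include ATP5F1D, NDUFA7, NDUFB7, NDUFA11, NDUFS7, UQCR11 and COX6B1, from 3 complexes besides the synthase.

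Promoter sequence was compared because NRF1, ETS-family factors such as GABPA, and YY1 are known regulators of nuclear respiratory genes. RefSeq promoters (build GRCh38.p14, from 250 bases before to 50 bases after the first listed start) matched 70 of the 87 members, and ATP5F1D was among those with no entry. An exact match on either strand to GCGCATGC, a core of the NRF1 site, was held by 18.6% of members and 4.26% of all 15843 protein-coding promoters. CCGGAAGT, an ETS core, was held by 14.3% and 6.19%, and AAGATGGC, a YY1 core, by 15.7% and 3.91%. CCCTCCCC, a core of the CT element that hnRNP K binds, was added after the data were seen and was held by 4 of 70 members (5.71%) and 15.7% of all promoters. Among the 30 members with a promoter entry that fell, 7 held the NRF1 core, 7 the ETS core, 5 the YY1 core and 4 the CT core. Among the 7 with an entry that rose these numbers were 1, 0, 2 and 0, and among the 26 with an entry that did not pass 5, 2, 3 and 0. The 4 members with the CT core were SDHA, NDUFV2, UQCR11 and NDUFA7. The median GC content was 61.7% in promoters of members that fell, 60.3% in those that rose, 58.5% in those that did not pass and 62.7% in all promoters. These matches are descriptions of letters in a window and not sites of binding.

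The promoters below belong to 4 members that fell without overlap of the groups (ATP5PD, NDUFA7, ATP5MC1 and SDHA), to SDHB, the partner of SDHA that did not pass, and to NDUFA9, the largest rise. Capitals mark every match to the 4 cores on either strand, and each is written 5′ to 3′ on the strand of the gene.
ATP5PD promoter, chr17:75046920-75047219 (minus strand): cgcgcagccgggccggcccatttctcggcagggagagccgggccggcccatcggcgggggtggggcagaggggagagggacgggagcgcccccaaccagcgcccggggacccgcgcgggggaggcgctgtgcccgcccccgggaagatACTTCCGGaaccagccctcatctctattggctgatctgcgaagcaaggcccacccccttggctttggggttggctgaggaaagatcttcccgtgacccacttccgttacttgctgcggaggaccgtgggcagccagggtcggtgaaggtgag
NDUFA7 promoter, chr19:8321326-8321625 (minus strand): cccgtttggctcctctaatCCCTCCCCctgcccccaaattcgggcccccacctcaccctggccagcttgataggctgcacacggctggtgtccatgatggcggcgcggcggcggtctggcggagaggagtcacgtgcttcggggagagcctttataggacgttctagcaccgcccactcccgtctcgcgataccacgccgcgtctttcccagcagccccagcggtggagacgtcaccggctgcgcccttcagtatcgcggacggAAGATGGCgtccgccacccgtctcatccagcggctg
ATP5MC1 promoter, chr17:48892537-48892836 (plus strand): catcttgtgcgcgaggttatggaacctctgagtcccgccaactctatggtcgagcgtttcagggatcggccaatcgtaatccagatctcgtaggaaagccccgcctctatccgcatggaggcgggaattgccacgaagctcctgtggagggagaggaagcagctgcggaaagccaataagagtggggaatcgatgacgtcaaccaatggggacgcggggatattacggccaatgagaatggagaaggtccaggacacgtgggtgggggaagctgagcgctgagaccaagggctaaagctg
SDHA promoter, chr5:218070-218369 (plus strand): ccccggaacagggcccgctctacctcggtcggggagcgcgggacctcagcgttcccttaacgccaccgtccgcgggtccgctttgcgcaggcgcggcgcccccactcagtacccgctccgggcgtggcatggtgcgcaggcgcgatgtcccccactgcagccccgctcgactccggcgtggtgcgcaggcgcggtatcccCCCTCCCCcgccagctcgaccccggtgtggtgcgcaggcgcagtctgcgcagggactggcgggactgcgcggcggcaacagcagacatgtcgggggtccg
SDHB promoter, chr1:17053983-17054282 (minus strand): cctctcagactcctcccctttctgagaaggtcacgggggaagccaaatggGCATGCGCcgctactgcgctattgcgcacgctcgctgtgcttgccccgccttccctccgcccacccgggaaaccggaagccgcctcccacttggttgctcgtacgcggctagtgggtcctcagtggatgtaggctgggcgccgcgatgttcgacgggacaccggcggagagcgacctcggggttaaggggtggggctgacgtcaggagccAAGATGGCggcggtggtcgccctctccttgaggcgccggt
NDUFA9 promoter, chr12:4648864-4649163 (plus strand): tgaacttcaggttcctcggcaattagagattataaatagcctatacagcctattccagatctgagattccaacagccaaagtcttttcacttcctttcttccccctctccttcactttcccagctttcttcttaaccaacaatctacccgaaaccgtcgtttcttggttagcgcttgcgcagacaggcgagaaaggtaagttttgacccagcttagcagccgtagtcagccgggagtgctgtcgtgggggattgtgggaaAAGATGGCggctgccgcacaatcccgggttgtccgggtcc
ATP5PD holds 1 ETS core on the opposite strand. NDUFA7 holds a CT core and, after the start, a YY1 core. ATP5MC1 holds none of the 4 cores. SDHA holds a CT core and no other. SDHB holds an NRF1 core on the opposite strand and a YY1 core. NDUFA9, the member that rose furthest, holds a YY1 core at the same distance after its start as SDHB. NDUFA7 and SDHA, which both fell, share the CT core, no core is in all 4 promoters of members that fell, and SDHA and SDHB, whose products bind each other, share none.

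The genes that act with the members moved in their own ways. CYC1, the haem-carrying cytochrome of complex III, went from 247 to 170 CPM (−0.53 ± 0.04, adjusted p = 3.61e-09), while NDUFAB1, the acyl carrier protein in complex I, rose by 0.16 ± 0.06 and CYCS, cytochrome c, by 0.14 ± 0.05 on the log2 scale (adjusted p = 0.0322 and 0.0149). Of 18 enzyme genes of the citric acid cycle and pyruvate dehydrogenase, 11 fell (61.1%) and 3 rose (16.7%), beside 36.1% and 35.5% of all genes, with a median of −0.31. The deepest falls were OGDH (−0.94 ± 0.05), the oxoglutarate dehydrogenase, and IDH2 (−0.93 ± 0.07), a mitochondrial isocitrate dehydrogenase. The largest rises were SUCLA2 (0.23 ± 0.06) and PDHB (0.23 ± 0.05).

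Of 48 tested assembly factors, which build the complexes without staying in them, 14 fell (29.2%) and 18 rose (37.5%), shares near those of all genes (36.1% and 35.5%), with a median of 0.05. SDHAF4, which assembles SDHA, fell by 2.58 ± 0.24 on the log2 scale (adjusted p = 1.94e-08), from 4.03 to 0.680 CPM, and TIMMDC1, a complex I factor, fell by 0.85 ± 0.06. NDUFAF1, a complex I factor, rose by 0.86 ± 0.09, and UQCC2, a complex III factor, rose by 0.74 ± 0.06. Among 17 tested regulators of nuclear respiratory genes and of mitochondrial DNA, 9 rose (52.9%) and 3 fell (17.6%), with a median of 0.25. TFB2M (0.74 ± 0.07) and TWNK (0.68 ± 0.05), which serve mitochondrial transcription and DNA replication, made the largest rises, and TFB1M (−1.71 ± 0.10) and ESRRA (−0.68 ± 0.08) the deepest falls. GABPA rose by 0.32 ± 0.05 (adjusted p = 1.59e-05), while NRF1 (0.15 ± 0.07, adjusted p = 0.0756) and YY1 (−0.01 ± 0.04, adjusted p = 0.844) did not pass. Genes of the mitochondrial ribosome were nearly balanced, with 22 rises (29.3%) and 26 falls (34.7%) of 75 tested, shares also near those of all genes, and a median of 0.04. MRPL1 (0.70 ± 0.07) and MRPS18C (0.62 ± 0.09) rose most, and MRPS25 (−1.18 ± 0.07) and MRPS18A (−1.07 ± 0.09) fell most.

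**Figure D5:**
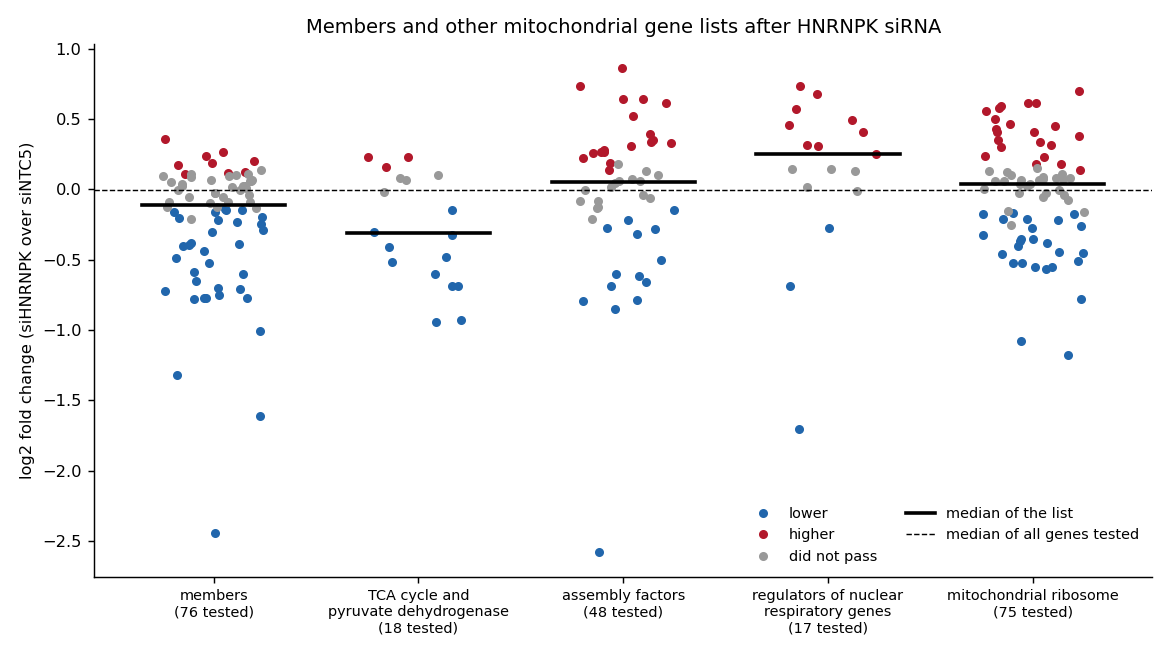
Log2 fold change of each tested gene (siHNRNPK over siNTC5) among the members and 4 other mitochondrial lists, with the median of each list as a bar and that of all genes as a dashed line. The median is −0.31 for the citric acid cycle and pyruvate dehydrogenase, −0.11 for the members and 0.25 for the regulators.

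The deposited chromatin domains touched few members. With at least 50% of the gene body inside, 8 of 87 members (9.20%) lay in H3K27me3 domains of control cells and the same number in those of HNRNPK siRNA cells, beside 20.2% and 18.5% of 18871 protein-coding genes. The 8 were the same in both lists: NDUFS6, NDUFA9, UQCRFS1, UQCRB, NDUFA4, COX8C, ATP5ME and ATP5MPL. In lamin B1 (LMNB1) domains lay NDUFA9, UQCRFS1 and COX7B2 in control cells and COX7B2 and ATP5ME after HNRNPK siRNA, 3.45% and 2.30% of members beside 9.85% and 6.59% of protein-coding genes. NDUFA6 and COX7B2 were in H3K9me3 domains in both lists, joined by NDUFA10 after HNRNPK siRNA, beside 7.02% (control) and 10.7% of protein-coding genes. UQCRFS1 and COX7B2 were in H3K9me2 domains of control cells, which held 6.48% of protein-coding genes. There is 1 list for each antibody and siRNA, so the differences between lists have no replicate check.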

How the data were processed

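The members and gene lists were chosen with earlier results of these data known, and the named genes follow a rule (in each complex the 3 largest rises and 3 largest falls among members that passed with an average log2 CPM of at least 3, fixed core subunits and paralogues, and the 2 largest in each direction from the other lists). ATP5PO, ATP5MF, ATP5PF, ATP5PB, NDUFA11, NDUFV3, NDUFA2, NDUFS6, GABPA, NRF1, YY1 and the overlapping genes fall outside it and were named after their values were seen. Whole-number read counts per gene symbol were deposited by the authors as 1 table of 8 libraries and 2 Scramble tables. Per the submitters' processing notes, reads were aligned with STAR 2.7.1a and counted with featureCounts, from Subread 2.0.6 for the 8 libraries, on hg38, with hg19 also named for Scramble. The strand setting and annotation are not given in the sources used here. The domain lists carry a score column set by the authors, which was not used, and coordinates on hg38.

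Counts were filtered by filterByExpr, scaled by TMM and fitted with edgeR 4.0.16 quasi-likelihood tests (terms for kit and treatment) over all genes, with Benjamini-Hochberg adjustment. Simulated counts were used to test the code. DESeq2 1.42.0 was an alternative, as were other scalings, filters, kit subsets and leaving out each library. Members were matched to RefSeq (GRCh38.p14), 3 of them through synonyms. Same-numbered libraries deviated together from their group means (r = 0.100, 0.425, 0.337 and 0.265 for replicates 1 to 4). The replicate numbers were therefore taken to pair the samples in an alternative fit, with a replicate block in place of the kit term. Within a kit the correlation was 0.058 (TruSeq) and 0.009 (ligation), so same-numbered libraries shared little beyond their kit. The values of 1 named member are not reported here.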

Additional observations from a re-analysis of the deposited data

Results flagged for a closer look

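Of 86 groups of 4 libraries examined (43 named members in siNTC5 and after HNRNPK siRNA), 2 held a library whose gap to its nearest neighbour passed Dixon's critical value as a share of the group's range, fewer than the 1 group in 20 that chance flags. ATP5F1B stood at 1323 CPM in HNRNPK siRNA replicate 4, with the next highest library at 1276 CPM. COX7A2L stood at 89.2 CPM in HNRNPK siRNA replicate 3, with the next at 78.1 CPM, and it passed as lower when that library was left out.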

How the results depend on the processing

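Of the 30 named members that passed in the knockdown, 18 kept their direction and passed under all alternatives run, ATP5F1D, ATP5PD, ATP5MC1, NDUFA7, NDUFB7, SDHA, UQCRQ, COX8A and COX5B among them, and of the other named members 10 passed under none. The count of 43 members that passed became 22 with Scramble added to the controls (21 lower, 1 higher). In that setting the synthase genes carry other names, 62 members were tested, and 7046 of all 14642 genes passed. The count of members was 16 with a fold of at least 0.5 (16 lower, 0 higher). The 9 rises became 5 with unscaled library totals, 4 without the kit term, 5 in the TruSeq libraries alone and 5 at an adjusted p under 0.01. Leaving out each library gave 36 to 44 members in all, 30 to 36 lower and 5 to 10 higher, 28 to 37 between kits, 45 to 48 for Scramble (8 to 10 lower, 36 to 38 higher), 0 to 4 for the interaction, and −2.25 to −2.13 for HNRNPK. The interaction passed for 1 member with no filter on low counts. The 10 members lower in Scramble became 18 with unscaled totals and 5 without the kit term. With Scramble added to the controls, NDUFC1 went to −0.168 and COX5A to −0.00587, and NDUFV1 in the Scramble comparison went to −0.00947 with unscaled totals, and the cause was not tested. With the replicate block in place of the kit term, 41 members passed, all with the same direction, 34 lower and 7 higher. UQCRFS1 and COX5A lost their calls under that pairing, and it changed no other call of a member. The number of members inside each domain list stayed within 1.5 times under any overlap or the whole gene body. At these depths, members under about 5 CPM are measured with little precision.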
